A study of Mus musculus with 27 samples.

Results

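Sycn, Ccn3, Nxpe2, Ak4, Gna14, Rgs17, Pllp, Ephx4, Atp2c2 and Tmprss2 are genes with some of the largest or most certain decreases in proximal colon of Foxa1/2-deficient mice, outside the goblet cell and gut hormone genes. These 10 of 35975 quantified genes were chosen from the genotype difference in proximal colon, so their proximal values are a description and carry no test. All 10 passed the filter on low counts in each segment. The rule for choosing them used no distal values, and the genotype difference in distal colon was tested. The distal libraries came from mice that also gave proximal ones, so this is not a test in separate animals.

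RNA was sequenced from 1 cm pieces of whole colon of adult mice of mixed background, in 27 libraries from 14 mice, of which 13 gave both segments. The deficient mice (7 proximal and 7 distal libraries, 9 to 13 months old, 2 labelled female) carried Villin1-Cre and were Foxa1lox/lox and Foxa2lox/lox. The control mice (7 proximal and 6 distal libraries, 9 to 18 months old, all labelled male) were of 3 kinds. Of the proximal control libraries, 5 came from mice without Cre that were Foxa1lox/lox and Foxa2lox/lox, so the floxed alleles were shared with the deficient group. Control mouse 1 carried Villin1-Cre with Foxa1lox/wt and Foxa2lox/wt, and control mouse 6 carried Villin1-Cre with Foxa1lox/lox and Foxa2lox/wt. Villin1-Cre acts in the intestinal epithelium, so muscle, stroma and immune cells in the piece kept both genes. In such bulk tissue, fewer cells of a type and less RNA per cell cannot be told apart.

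Foxa1 and Foxa2 are forkhead transcription factors that bind DNA in closed chromatin and open enhancers in organs that arise from endoderm. In the gut they are known for roles in secretory and enteroendocrine cells. The 10 genes share no single pathway. They cover a granule protein and a secreted matrix protein, a pair of genes of G protein signalling, membrane proteins of the secretory route and cell surface, and intracellular enzymes.

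Levels below are CPM, counts scaled by the normalized library size, unless TPM, which is also scaled by transcript length, is named. Foxa1 was at 6.69 to 15.7 CPM over the 14 deficient libraries, against 38.6 to 75.0 CPM in control libraries other than those of control mouse 6, where its proximal level was 15.0 CPM and its distal level 6.87 CPM. Foxa2 was at 0.298 to 1.92 CPM in deficient libraries, against 6.57 to 27.2 CPM in control libraries. Total estimated counts were between 18472867 and 56744113 per library. None of the 7 epithelial marker genes passed the edgeR test in either segment. At an unadjusted p of 0.05, 1 was higher in proximal and 1 lower in distal colon, and DESeq2 called 0. In proximal colon the 7 genes summed to 11780 to 16468 CPM over the deficient and 10529 to 16453 CPM over the control libraries. Their distal sums were 10109 to 16923 CPM over the deficient and 12653 to 19211 CPM over the control libraries. Deficient mouse 3 is labelled male, but its Y-linked transcript Ddx3y was at 0.0218 CPM in its proximal and 0.621 CPM in its distal library, against at least 33.0 CPM in each other library labelled male.

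The start regions of the genes were searched for the letters of a forkhead site. RefSeq windows on GRCm38.p6, from 250 bases before to 50 bases after a gene's start, matched 8 of the 10 genes with 12 windows. Atp2c2 and Ccn3 had no entry. TGTTTAC and TATTTAC were searched on both strands, where matches on opposite strands can share bases at their ends. Only the Sycn window held a match, TATTTAC on the plus strand, beginning 173 bases before the start. TGTTTAC was in 3.65% and TATTTAC in 3.04% of all 32851 windows, and either was in 6.54%. Absence of a match says only that these letters are not in the window. RefSeq starts can also differ from the starts of the genes as counted here. The Nxpe2 window, chr9:48340849-48341148, lies inside the counted gene, which runs from 48318006 to 48353454 on the minus strand. Both Ephx4 windows, beginning at 107403263 and 107405511, lie inside its counted gene, which begins at 107402736. The 250 bases before the start are shown for Sycn, with the match in capitals, and for Rgs17, whose window held none. The Sycn stretch is chr7:28540635-28540884 (plus strand) with 49.2% G and C, and the Rgs17 stretch is chr10:5922401-5922650 (minus strand) with 72.4%.
Sycn: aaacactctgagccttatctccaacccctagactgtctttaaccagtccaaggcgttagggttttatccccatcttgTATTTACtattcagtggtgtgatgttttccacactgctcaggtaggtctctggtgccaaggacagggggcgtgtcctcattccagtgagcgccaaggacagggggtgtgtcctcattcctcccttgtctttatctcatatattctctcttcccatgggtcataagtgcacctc
Rgs17: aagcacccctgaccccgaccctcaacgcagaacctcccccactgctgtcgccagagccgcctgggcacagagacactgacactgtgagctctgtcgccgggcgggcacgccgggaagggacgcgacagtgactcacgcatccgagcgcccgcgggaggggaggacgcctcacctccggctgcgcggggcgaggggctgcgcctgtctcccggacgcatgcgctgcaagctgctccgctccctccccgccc

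In proximal colon, each of the 10 genes was lower in all 7 deficient libraries than in any of the 7 control libraries. Mean levels in deficient mice ran from 2.91% of the control mean for Sycn to 45.0% for Tmprss2. Of 16787 genes tested there, 11.7% passed an adjusted p of 0.05 (edgeR quasi-likelihood test, Benjamini-Hochberg) in either direction, 6.17% were lower and past it, and 2.79% had every deficient library below every control library. These shares only describe the comparison that chose the genes. In order of decrease among all tested genes, Sycn was number 2, Ccn3 number 3, Nxpe2 number 5, Ak4 number 8 and Gna14 number 10. The other members stood out by the certainty of the difference, with Rgs17, Pllp and Ephx4 at places 2, 3 and 4 by smallest p, Tmprss2 at 10 and Atp2c2 at 13. The rule for choosing them had no numeric limit.

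In distal colon, 7 of the 10 genes fell past an adjusted p of 0.05, and each of these 7 had every deficient library below every control library. They were Sycn, Ccn3, Ephx4, Ak4, Rgs17, Gna14 and Pllp. Over all 16041 genes tested in distal colon, 3.37% were lower and past that limit, 6.07% passed in either direction, and 2.09% had groups that did not overlap in this direction. Tmprss2, Nxpe2 and Atp2c2 did not pass, and their groups overlapped.

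**Figure D1:**
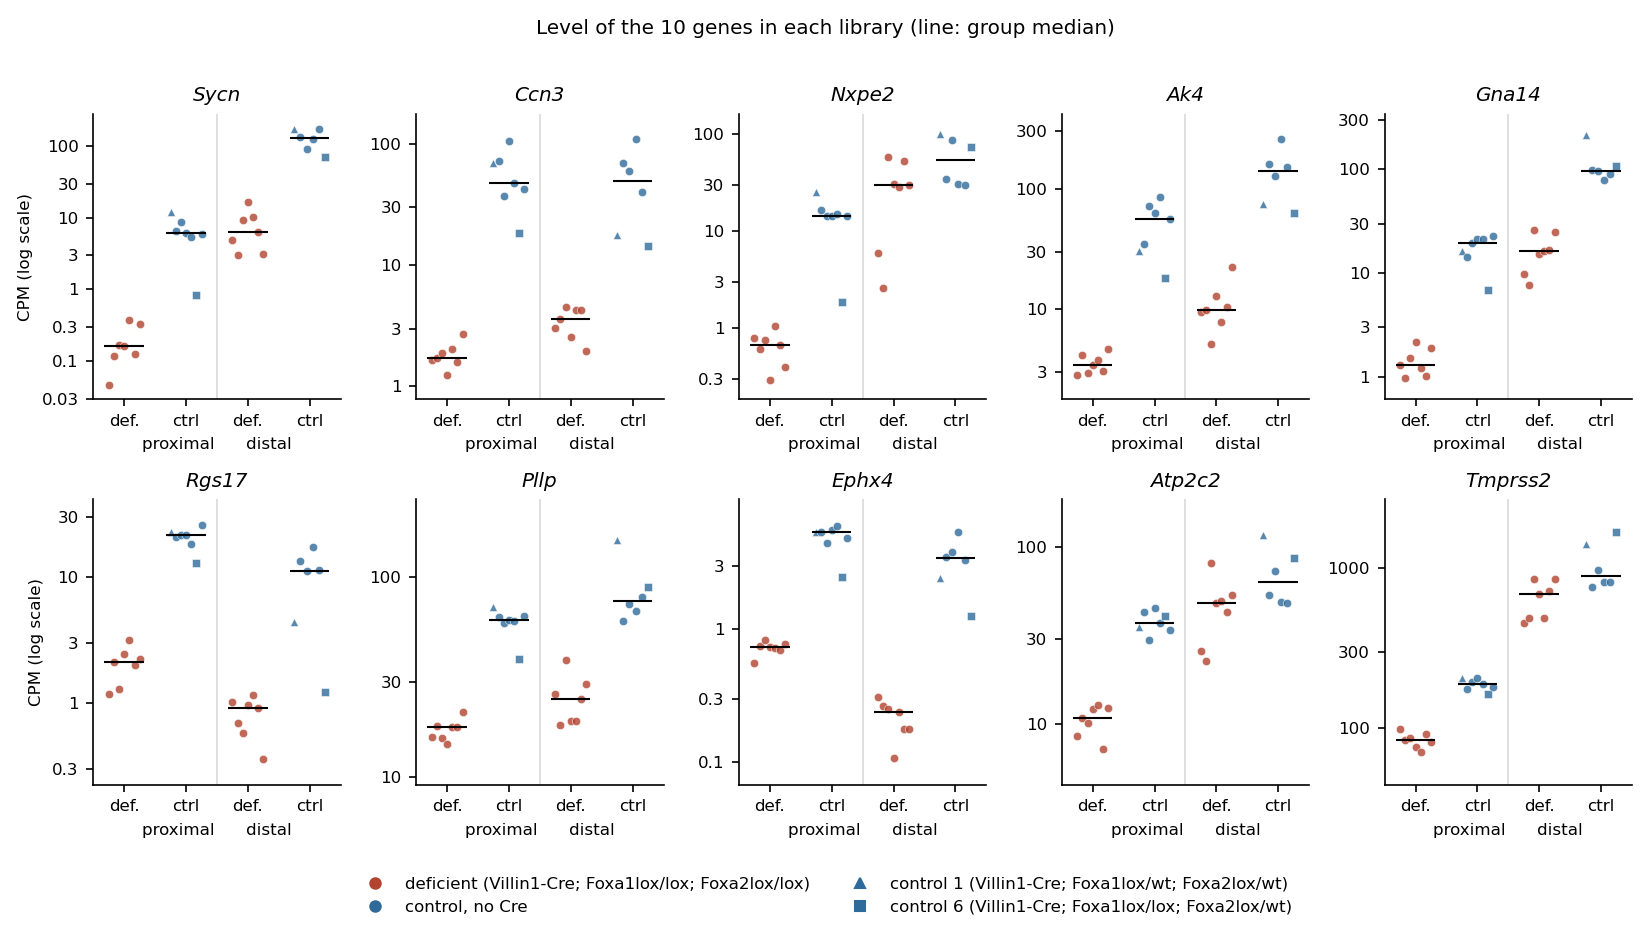
CPM of each gene in every library on log axes, with deficient libraries left of control libraries in each segment and a line at the group median. Every proximal panel has the groups apart, and the distal groups overlap for Nxpe2, Atp2c2 and Tmprss2. The square is control mouse 6, the lowest proximal control library for 9 of the 10 genes.

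Sycn (ENSMUSG00000084174.3, chromosome 7, 28540885 to 28542209, plus strand, GRCm38) encodes syncollin, a small protein on the inner face of zymogen granule membranes of the exocrine pancreas. In proximal colon it was at 0.0468 to 0.370 CPM (median 0.163) in deficient libraries, against 0.827 to 11.9 CPM (median 6.10) in control libraries. These were 2 to 17 estimated counts in deficient and 31 to 524 in control libraries, so the size of the proximal difference (log2 fold change -5.08, SE 0.51) rests on few reads. In distal colon it was at 3.07 to 16.4 CPM (median 6.33) in deficient libraries, against 70.2 to 176 CPM (median 130) in control libraries. The highest distal deficient library was thus below the lowest control library, at 600 estimated counts or fewer against 1963 or more. Distal Sycn fell, its log2 fold change being -4.05 (SE 0.40, edgeR quasi-likelihood adjusted p = 2.93e-05).

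Because Sycn is known as a pancreatic transcript, 12 pancreatic acinar genes were summed in each library. The remaining gene of that list of 13, Cela1, was left out because every group expressed it, with 26.1 to 36.8 CPM over the deficient and 27.5 to 51.0 CPM over the control proximal libraries, and 48.6 to 171 CPM over the deficient and 81.9 to 193 CPM over the control distal libraries. The sum was 828 CPM in the library of deficient mouse 4, 416 CPM in deficient mouse 5, 24.2 CPM in deficient mouse 2 and 279 CPM in control mouse 4. It was between 1.19 and 12.0 CPM in each other distal library. Proximal sums ran from 0.745 to 1.65 CPM over the deficient and from 0.827 to 6.46 CPM over the control libraries. Clps, which was lower in proximal libraries of deficient mice, stayed in the sum. Among control libraries, the median of Clps was 3.21 CPM for the proximal and 6.80 CPM for the distal segment. Low sums could thus be largely Clps, and were not a measure of pancreatic RNA alone. Sycn was highest among distal deficient libraries in deficient mice 4 and 5, with 16.4 and 10.4 CPM. In control mouse 1, with a pancreatic sum of 4.34 CPM, Sycn was at 176 CPM. Without the 3 distal libraries over 100 CPM of pancreatic transcripts, the distal log2 fold change of Sycn was -4.56 (edgeR quasi-likelihood adjusted p = 0.000137).

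Ccn3 (also called Nov, ENSMUSG00000037362.8, chromosome 15) encodes a secreted matricellular protein that binds integrins and other receptors at the cell surface. Proximal levels were 1.25 to 2.69 CPM (median 1.72) in deficient libraries, against 18.6 to 106 CPM (median 47.3) in control libraries. Distal levels were 1.97 to 4.50 CPM (median 3.62) in deficient libraries, against 14.5 to 111 CPM (median 49.9) in control libraries. The control libraries varied much more than the deficient ones, with a coefficient of variation of 27.9% in distal deficient and 69.6% in distal control libraries. Distal Ccn3 fell, its log2 fold change being -3.91 (SE 0.44, edgeR quasi-likelihood adjusted p = 8.98e-05), beside -4.93 (SE 0.34) in proximal colon.

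Gna14 (ENSMUSG00000024697.4, chromosome 19) encodes an alpha subunit of the Gq class, which couples receptors to phospholipase C. Proximal levels were 0.967 to 2.14 CPM (median 1.29) in deficient libraries, against 6.86 to 23.0 CPM (median 19.6) in control libraries. Distal levels were 7.72 to 26.0 CPM (median 16.4) in deficient libraries, against 79.3 to 215 CPM (median 97.7) in control libraries. The groups were apart in both segments, and the nearest distal libraries were at 26.0 CPM in a deficient and 79.3 CPM in a control mouse. Distal Gna14 fell, its log2 fold change being -2.78 (SE 0.30, edgeR quasi-likelihood adjusted p = 8.07e-05), beside -3.61 (SE 0.26) in proximal colon.

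Rgs17 (ENSMUSG00000019775.17, chromosome 10) encodes a regulator of G protein signalling that speeds GTP hydrolysis by inhibitory alpha subunits. Proximal levels were 1.19 to 3.18 CPM (median 2.13) in deficient libraries, against 13.0 to 26.2 CPM (median 21.8) in control libraries. Distal levels were 0.358 to 1.15 CPM (median 0.913) in deficient libraries, against 1.22 to 17.6 CPM (median 11.3) in control libraries. The distal groups were separated only narrowly, because control mouse 6 was at 1.22 CPM. Distal Rgs17 fell, its log2 fold change being -3.59 (SE 0.49, edgeR quasi-likelihood adjusted p = 0.000430). In proximal colon its value was -3.33 (SE 0.21).

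Rgs17 reads came mostly from a pair of annotated transcripts that differ in length, 1651 and 8107 bases. The shorter one took 39.3 ± 14.4% of the gene's estimated counts in proximal deficient libraries and 19.9 ± 2.65% in proximal control libraries (SD, n = 7 each). In distal colon it took 17.8 ± 11.3% in deficient (n = 7) and 18.5 ± 5.06% in control libraries (n = 6), with 37 estimated counts of the shorter transcript in all deficient and 371 in all control libraries. With an offset for transcript length, the proximal log2 fold change of Rgs17 was -2.76.

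Pllp (ENSMUSG00000031775.5, chromosome 8) encodes plasmolipin, a membrane protein with several membrane spans found in myelin and in apical membranes of epithelia. Proximal levels were 14.7 to 21.3 CPM (median 17.8) in deficient libraries, against 39.2 to 70.8 CPM (median 61.2) in control libraries. Distal levels were 18.3 to 38.5 CPM (median 24.7) in deficient libraries, against 60.7 to 153 CPM (median 76.2) in control libraries. The groups were apart in both segments, and the size of the difference was nearly the same, at -1.78 (SE 0.12) in proximal and -1.80 (SE 0.23) in distal colon. The distal fall had an edgeR quasi-likelihood adjusted p of 0.000278. Of the 31-base windows of the Pllp transcripts, 47.9% also lie in the antisense gene Gm45767, which was not among the quantified transcripts, so reads from either gene cannot be told apart.

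Atp2c2 (ENSMUSG00000034112.9, chromosome 8) encodes a pump that moves calcium and manganese ions into the secretory pathway. Proximal levels were 7.25 to 12.7 CPM (median 10.8) in deficient libraries, against 29.6 to 45.2 CPM (median 37.2) in control libraries. Distal levels were 22.7 to 81.4 CPM (median 48.4) in deficient libraries, against 48.4 to 116 CPM (median 63.0) in control libraries. In distal colon 3 of the 7 deficient libraries were below the lowest control. The distal log2 fold change was -0.62 (SE 0.29, edgeR quasi-likelihood adjusted p = 0.272), and the proximal value was -1.84 (SE 0.13).

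Tmprss2 (ENSMUSG00000000385.8, chromosome 16) encodes a serine protease anchored in the apical membrane of epithelia, best known for cleaving the entry proteins of respiratory viruses. Proximal levels were 70.9 to 99.0 CPM (median 84.6) in deficient libraries, against 164 to 206 CPM (median 189) in control libraries. In proximal colon its spread was the smallest of the 10 genes, with a coefficient of variation of 11.2% in proximal deficient and 8.25% in proximal control libraries, and the proximal value was -1.15 (SE 0.08). Distal levels were 452 to 851 CPM (median 686) in deficient libraries, against 756 to 1670 CPM (median 889) in control libraries. Of the 7 distal deficient libraries, 5 were below the lowest control. The distal log2 fold change was -0.73 (SE 0.23) with an edgeR quasi-likelihood adjusted p of 0.0795, and DESeq2 gave an adjusted p of 0.0317 for the same value.

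Ak4 (ENSMUSG00000028527.18, chromosome 4) encodes an adenylate kinase of the mitochondrial matrix. Proximal levels were 2.85 to 4.65 CPM (median 3.44) in deficient libraries, against 18.0 to 84.6 CPM (median 56.3) in control libraries. Distal levels were 5.08 to 22.3 CPM (median 9.86) in deficient libraries, against 62.4 to 260 CPM (median 139) in control libraries. Distal Ak4 fell, its log2 fold change being -3.66 (SE 0.37, edgeR quasi-likelihood adjusted p = 4.25e-05), beside -3.85 (SE 0.30) in proximal colon. Its transcript of 4175 bases took 79.1 ± 22.6% of the gene's estimated counts in distal deficient and 84.1 ± 7.82% in distal control libraries. In proximal colon that share was 48.8 ± 46.9% in deficient and 50.2 ± 23.0% in control libraries, a spread too wide for a statement on transcript choice. Ak4 shares 11.6% of its windows with the pseudogene Ak3l2-ps, whose mean level was at most 0.0106 CPM in any group.

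Ephx4 (ENSMUSG00000033805.12, chromosome 5) belongs to the epoxide hydrolase family. Proximal levels were 0.561 to 0.825 CPM (median 0.732) in deficient libraries, against 2.48 to 5.93 CPM (median 5.36) in control libraries. Distal levels were 0.109 to 0.311 CPM (median 0.238) in deficient libraries, against 1.25 to 5.36 CPM (median 3.42) in control libraries. These distal levels were 3 to 11 estimated counts in deficient and 35 to 198 in control libraries. Distal Ephx4 fell, its log2 fold change being -3.88 (SE 0.33, edgeR quasi-likelihood adjusted p = 1.35e-05), and the proximal value was -2.74 (SE 0.18). Of its windows, 2.79% also lie in the antisense gene Gm17202, likewise not quantified.

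Nxpe2 (ENSMUSG00000032028.15, chromosome 9) belongs to the neurexophilin and PC-esterase domain family. Proximal levels were 0.298 to 1.07 CPM (median 0.670) in deficient libraries, against 1.87 to 25.2 CPM (median 14.4) in control libraries. Distal levels were 2.62 to 57.6 CPM (median 30.3) in deficient libraries, against 29.7 to 101 CPM (median 54.6) in control libraries. Deficient mice 1 and 2 were at 5.94 and 2.62 CPM, and the other 5 deficient mice were between 28.4 and 57.6 CPM. The proximal value was -4.45 (SE 0.43). The distal log2 fold change was -1.00 (SE 0.57, edgeR quasi-likelihood adjusted p = 0.389). Whether the genotype difference itself differs between the segments was not tested, since the proximal values had chosen the gene.

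**Figure D2:**
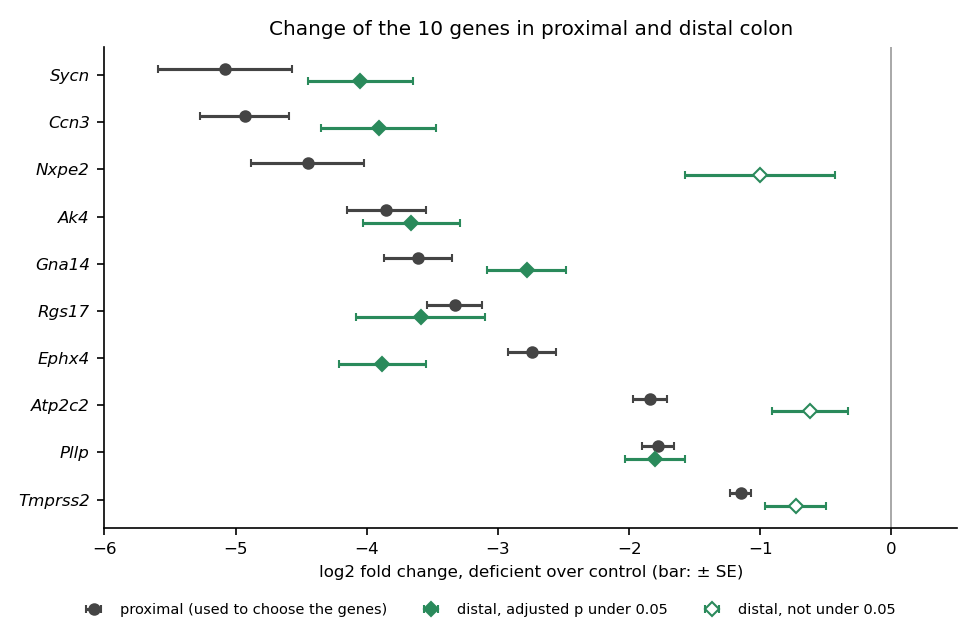
log2 fold change of deficient over control mice with its SE, ordered by the proximal value, with circles for proximal and diamonds for distal colon. The 7 filled diamonds, from -4.05 for Sycn to -1.80 for Pllp, passed an adjusted p of 0.05. The 3 open ones did not.

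Levels of different genes were compared in TPM. In proximal control libraries Tmprss2 (81.6 ± 5.28 TPM) and Pllp (67.0 ± 11.8 TPM) were the most abundant of the 10, and Ephx4 the least (5.77 ± 1.39 TPM, SD, n = 7). In proximal deficient libraries Tmprss2 (37.6 ± 7.93 TPM) and Pllp (19.4 ± 3.42 TPM) again came first, and 6 of the genes were under 1 TPM on average. In distal deficient libraries Tmprss2 led with 292 ± 64.9 TPM and Sycn followed with 32.3 ± 21.0 TPM (n = 7). In distal control libraries Sycn was at 494 ± 149 TPM and Tmprss2 at 438 ± 125 TPM (n = 6), a difference within their spread.

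The segments were then compared within each mouse that gave both, as the log2 ratio of distal over proximal CPM under 1 scaling of all libraries. Sycn, Nxpe2, Ak4, Gna14, Pllp, Atp2c2 and Tmprss2 were higher in distal colon in 7 of 7 deficient and 6 of 6 control mice. Rgs17 ran the other way, with distal above proximal in 1 of 7 deficient and 0 of 6 control mice. Ephx4 was higher in distal colon in 0 of 7 deficient and 1 of 6 control mice. For Ccn3 it was 6 of 7 deficient and 4 of 6 control mice.

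The mean ratio of Sycn was 5.62 ± 1.24 in deficient and 4.81 ± 1.06 in control mice on the log2 scale. The rise toward distal colon was thus present in both. Proximal deficient libraries held only 2 to 17 estimated counts of Sycn, so the size of the deficient ratio is uncertain. The ratio of Tmprss2 was 3.15 ± 0.44 in deficient and 2.68 ± 0.54 in control mice, and that of Gna14 was 3.73 ± 0.55 and 3.04 ± 0.88 in the same order. The ratios of Ak4 (1.79 ± 0.51 in deficient and 1.74 ± 0.61 in control mice) and Pllp (0.74 ± 0.43 in deficient and 0.76 ± 0.53 in control mice) were nearly the same in both groups. Nxpe2 had a mean ratio of 5.28 ± 1.85 in deficient and 2.42 ± 1.67 in control mice, and Atp2c2 had 2.30 ± 0.64 in deficient and 1.06 ± 0.65 in control mice. Ephx4 had -1.53 ± 0.59 in deficient and -0.40 ± 0.41 in control mice, and its distal deficient libraries held only 3 to 11 estimated counts. These ratios use the proximal values that chose the genes and were not tested. In the deposited quantification, the effective length fell short of the transcript length by 249.0 bases in every distal library and by 214.56 to 246.0 bases in the proximal ones, so the segments differ in the fragment lengths assumed. The part of this in the ratios was not tested.

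**Figure D3:**
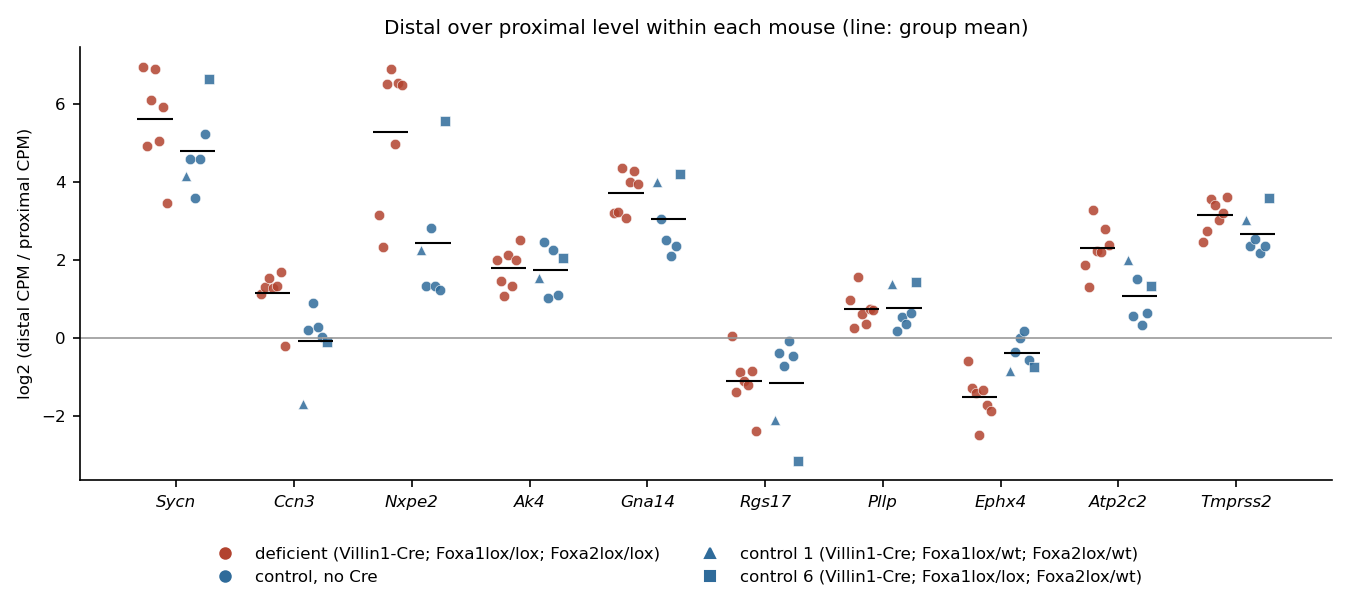
log2 of distal over proximal CPM in each mouse with both segments, with 7 deficient mice left of 6 control mice for each gene and a line at the group mean. Of the 10 genes, 7 lie above 0 in every mouse, and Nxpe2 has the widest range.

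The control mice with Cre kept wild-type alleles and are described with 1 mouse per genotype and no test. In control mouse 1 neither Foxa1 nor Foxa2 was below the mean of the controls without Cre. Its Foxa1 was at 114% of that mean in proximal and 156% in distal colon, and its Foxa2 at 135% and 166%. Control mouse 6, with a single wild-type Foxa2 allele, had proximal Foxa1 at 22.8% of the mean of the controls without Cre and Foxa2 at 205%. In its distal colon Foxa1 was at 14.8% and Foxa2 at 131%. For 9 of the 10 genes, all but Atp2c2, its proximal level was below every control without Cre. Over all tested genes, 25.9% were below every control without Cre in that library. The proximal libraries of the control mice with Cre were among those that chose the genes, so these counts only describe. Its proximal Sycn was 0.827 CPM, which is 12.6% of the mean of the controls without Cre (6.55 CPM). Its Nxpe2 was likewise at 12.6%, Ak4 at 29.0%, Ccn3 at 30.4%, Gna14 at 34.5%, Ephx4 at 47.4%, Rgs17 at 59.4%, Pllp at 63.8% and Tmprss2 at 86.8% of that mean. Atp2c2 was at 109%.

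In distal colon, mouse 6 was below every control without Cre for 5 genes (Sycn, Ccn3, Ak4, Rgs17 and Ephx4), above every one for 4 (Gna14, Pllp, Atp2c2 and Tmprss2), and within their range for Nxpe2. Over all tested genes these shares were 26.9% below and 25.9% above. Distal Rgs17 was at 9.07% of the mean of the controls without Cre, and distal Tmprss2 at 200%. Control mouse 1, with a wild-type allele of each factor, was below every proximal control without Cre for Ak4 alone, above every one for Sycn, Nxpe2 and Pllp, and within their range for 6 genes. Over all tested genes, 12.7% were below and 13.4% above every control without Cre in that library. In distal colon it was above every control without Cre for 6 genes, led by Gna14 (235% of their mean), Nxpe2 (222%) and Pllp (218%), and below for Ccn3, Ak4, Rgs17 and Ephx4. Over all tested genes 25.7% were below and 25.8% above in that library.

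**Figure D4:**
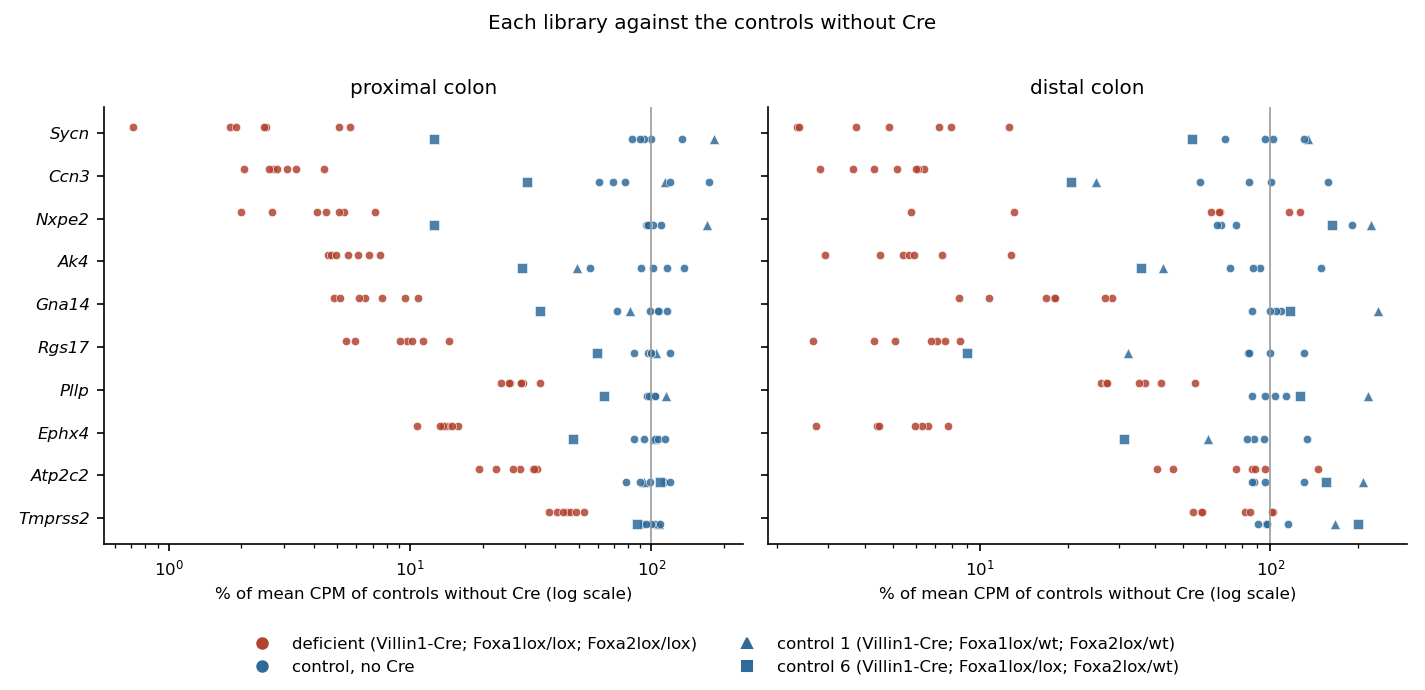
Level of each gene in every library as a percent of the mean CPM of the control mice without Cre (log axis), proximal left and distal right, with deficient libraries above control libraries within each gene. In proximal colon the square of control mouse 6 lies between the deficient libraries and the controls without Cre for 9 genes. These proximal values were among those that chose the genes.

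Relatives and partners of the 10 genes were examined as 10 lists, which hold 111 genes other than the members. In proximal colon 4 rose and 15 fell of 99 tested, with a median log2 fold change of -0.02, and in distal colon 1 rose and 12 fell of 90 tested, with a median of -0.12. The median over all tested genes was 0.01 in each segment. Over all 16787 genes tested in proximal colon, 927 rose and 1035 (6.17%) fell. Of all 16041 tested in distal colon, 433 rose and 540 (3.37%) fell. The counts of each list below stand beside these shares.

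Of these 10 lists, granule exocytosis held the highest number of genes that fell. In proximal colon 7 of its 15 tested genes fell and 0 rose, and in distal colon 7 of 16 fell and 0 rose, with a median log2 fold change of -0.37 in each. The gene counts for a rise were 1 in each segment at an unadjusted p of 0.05 and 0 by DESeq2. Sytl4, a synaptotagmin-like effector of Rab27, averaged 8.28 ± 0.870 CPM in deficient and 18.3 ± 2.26 CPM in control proximal libraries (log2 fold change -1.15, SE 0.10, edgeR quasi-likelihood adjusted p = 1.06e-06). Rab3d, a small GTPase of secretory granules, averaged 71.5 ± 7.37 CPM in deficient and 119 ± 15.4 CPM in control proximal libraries (edgeR quasi-likelihood adjusted p = 4.72e-05). Sytl2, another synaptotagmin-like protein, fell in proximal colon with a log2 fold change of -0.82 (SE 0.13, edgeR quasi-likelihood adjusted p = 0.000386). In distal colon the smallest p belonged to Sytl1, at 18.8 ± 4.40 CPM in deficient and 48.3 ± 12.3 CPM in control libraries (log2 fold change -1.36, SE 0.18, edgeR quasi-likelihood adjusted p = 0.000382). Distal Sytl4 fell by 1.18 and Rab27b by 0.75 on the log2 scale.

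Of the calcium pump and store-operated entry genes, 5 of 13 fell and 1 rose in proximal colon, and 2 of 10 fell and 0 rose in distal colon (0 rises also at an unadjusted p of 0.05 and by DESeq2). Atp2a3, the calcium pump of the endoplasmic reticulum known as SERCA3, averaged 332 ± 38.9 CPM in deficient and 697 ± 104 CPM in control proximal libraries (log2 fold change -1.07, SE 0.11, edgeR quasi-likelihood adjusted p = 5.29e-06). In distal colon it averaged 547 ± 67.5 CPM in deficient and 1014 ± 114 CPM in control libraries (log2 fold change -0.89, SE 0.11, edgeR quasi-likelihood adjusted p = 0.000229). The channel subunit gene Orai2 and the store sensor gene Stim2 fell in proximal colon, by 1.13 and 0.56 on the log2 scale. Distal Stim1, the other store sensor gene, fell by 0.65. Atp2c1, the nearest relative of Atp2c2, did not pass in either segment.

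In the other lists few genes passed, and no gene of the CCN and adenylate kinase lists did so in either segment (4 and 7 tested in proximal colon, 3 and 5 in distal colon, edgeR quasi-likelihood test). At an unadjusted p of 0.05 none of them passed in proximal colon, and 1 CCN gene and 2 adenylate kinase genes were lower in distal colon, where DESeq2 called 1 of each lower. In proximal colon Gnat3, an alpha subunit of taste and tuft cells, rose by a log2 fold change of 1.25, Rgs22 rose by 1.75 and Cmtm8 by 1.10, while Cmtm6 (-0.20), Ephx1 (-0.52) and the protease gene Prss8 (-0.54) fell. Distal Nxpe4, a relative of Nxpe2, averaged 63.0 ± 24.1 CPM in deficient and 161 ± 30.6 CPM in control libraries (log2 fold change -1.36, SE 0.24, edgeR quasi-likelihood adjusted p = 0.00378). Nxpe2 shares 1.03% of its windows with Nxpe4 and a related pseudogene. Distal Ephx2, which encodes the soluble epoxide hydrolase, fell by 1.24, and Gnas, which encodes the stimulatory alpha subunit, fell by 0.42, whereas Rgs12 rose by 0.80.

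**Figure D5:**
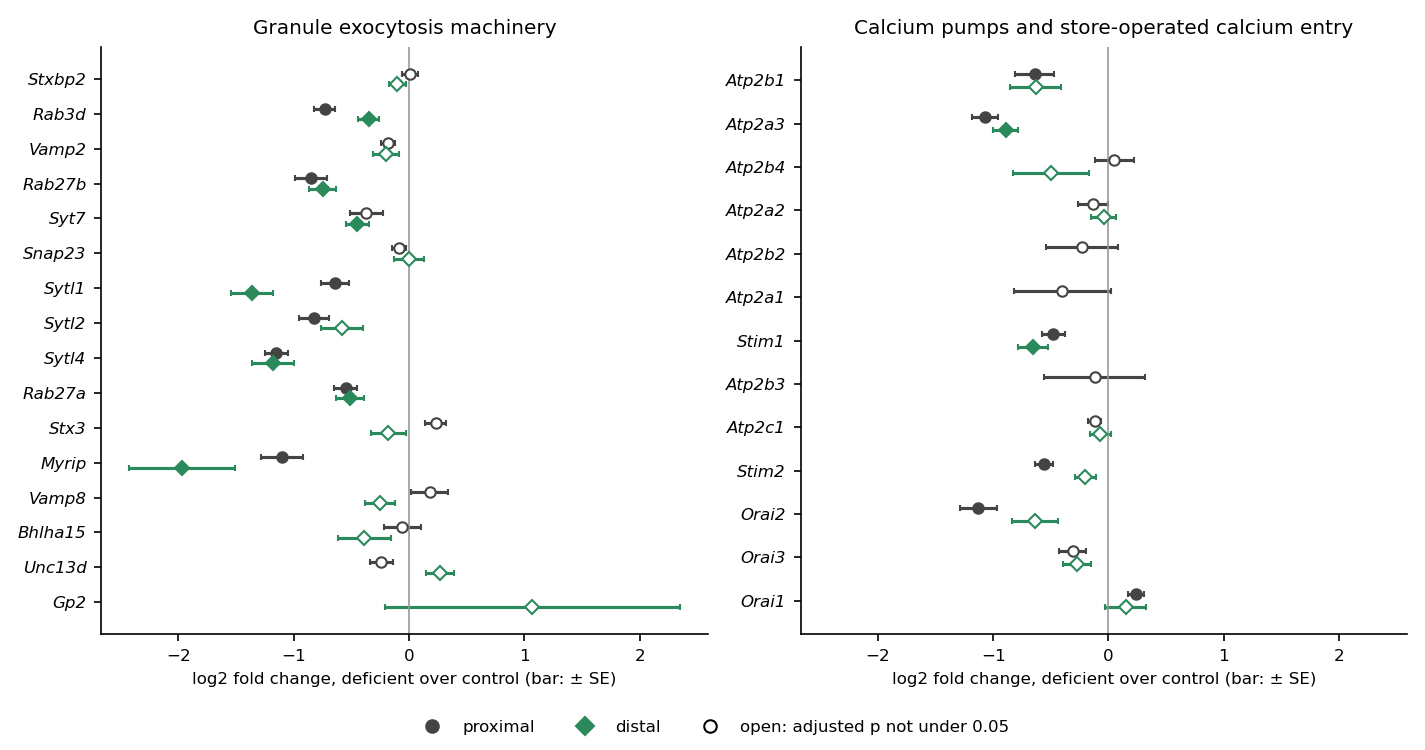
log2 fold change of deficient over control mice with its SE for the granule exocytosis list (left) and the calcium list (right), circles for proximal and diamonds for distal colon, filled where the adjusted p was under 0.05. All filled symbols of the granule list lie below 0, and Orai1 in proximal colon is the only filled symbol of the calcium list above 0.

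Markers of other cell types moved with the genotype in part. Of 8 goblet cell markers 4 fell in proximal colon and 1 in distal colon. Their summed level was 3400 to 7962 CPM over the deficient and 6835 to 10614 CPM over the control proximal libraries. In distal colon the sum was 12658 to 23789 CPM over the deficient and 22798 to 32513 CPM over the control libraries. There 5 of the 8 were lower at an unadjusted p of 0.05 (edgeR), and DESeq2 called 2 lower. The 4 mast cell markers rose in proximal colon, where they summed to 5.07 to 12.0 CPM over the deficient and 0.190 to 1.98 CPM over the control libraries, with Mcpt4 at 0 in 2 control libraries. In distal colon 1 of the 4 rose, and they summed to 8.48 to 56.9 CPM over the deficient and 1.76 to 5.83 CPM over the control libraries. Of 6 enteroendocrine markers, 2 rose and 1 fell in proximal colon and 4 rose in distal colon, with distal sums of 311 to 593 CPM over the deficient and 142 to 273 CPM over the control libraries. Of 7 absorptive colonocyte markers, 1 rose and 2 fell in proximal colon and 2 fell in distal colon. Of 5 tuft cell markers 2 rose in proximal colon, with sums of 54.7 to 83.4 CPM over the deficient and 38.8 to 77.1 CPM over the control libraries, and 0 passed in distal colon. Of 5 stem and dividing cell markers 1 rose in each segment, and of 5 fibroblast markers 1 rose in proximal colon. None of the 29 smooth muscle, endothelial, neuronal and glial, macrophage, T cell and B cell markers passed the edgeR test in either segment. At an unadjusted p of 0.05, 5 of these 29 passed in distal colon, all lower, and in proximal colon 3 were higher and 2 lower, of which DESeq2 called 1 higher. None of the adipocyte markers passed either. Of 4 tested in proximal colon, 2 were lower at an unadjusted p of 0.05 (edgeR), and of 3 tested in distal colon 0 were. Their distal sums varied widely, with 2.05 to 95.4 CPM over the deficient and 26.0 to 299 CPM over the control libraries. The part of these cell types in the values of the 10 genes was not tested.

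Over the 13 distal libraries, the genes most like the mean of the 10 standardised members, among 10708 candidates, were Pla2g10 (Pearson r 0.986), P2rx4 (0.984), Oit1 (0.980), Car2 (0.979) and Atp2a3 (0.975). These values describe libraries that also differ by genotype. Pla2g10, which encodes a secreted phospholipase, averaged 21.5 ± 7.46 CPM in deficient and 99.5 ± 19.2 CPM in control distal libraries. P2rx4, an ATP-gated cation channel gene, averaged 81.2 ± 7.83 CPM in deficient and 141 ± 11.3 CPM in control libraries. Car2, a carbonic anhydrase gene, averaged 262 ± 63.3 CPM in deficient and 738 ± 103 CPM in control libraries. Among the members themselves, Gna14 lay closest to their mean (0.987) and Nxpe2 farthest (0.705). Each member is part of that mean, which raises its value, so these cannot be set beside those of the other genes.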

How the data were processed

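Poly(A) RNA of proximal and distal colon was measured in 27 libraries, grouped by the genotype group in the labels, with each replicate a separate mouse. Per the submitters' processing notes, bcl2fastq 2.20.0.422, cutadapt 2.5, kallisto 0.46.2 and edgeR were used with the GRCm38 (mm10) build. The authors deposited estimated counts and TPM per transcript for each library, and 2 gene matrices of log2 CPM. How those were normalized is not stated in the labels. Per the labels' protocols, libraries were made with a kit that, as named, does not mark strand.

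Transcripts were joined to GENCODE M21 genes by identifier without version. Of 119414 transcripts 116728 matched, and the 2686 others, with 0.902% to 1.27% of a library's counts, were not used. Expected counts were added up by gene and rounded, and the deposited TPM were summed per gene. The total per library, with a median of 40556273, sets the precision of low genes such as Ephx4 and proximal Sycn.

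The genotype groups were compared per segment with the edgeR 4.0.16 quasi-likelihood test (R 4.3.3) after filterByExpr and TMM, without covariates, and a gene was called at a Benjamini-Hochberg adjusted p under 0.05 over all tested genes. The SE is the log2 fold change divided by the root of the F value. The procedure was tested on simulated counts. The members and lists were chosen with earlier results of these data known. Named were the members, Foxa1 and Foxa2, up to 3 genes of smallest p per list and segment among those called, and the 5 genes of highest correlation with the members' mean among genes of at least 5 mean CPM in distal controls. Genes outside this rule are Orai1, Atp2c1, Clps and genes named for shared sequence, chosen after their values were seen. Also outside it are Ddx3y, named for sex, Cela1, named as left out of a sum, and Mcpt4, a marker at 0 in some libraries. Deposited log2 CPM of the members differed from those computed here by a median of 0.12 and at most 1.51 over 256 values, and Sycn had no row in the proximal matrix. Shared sequence was counted in windows of 31 bases on either strand. Alternatives were other normalizations, filters and tools, a length offset, leaving out each library, subsets by sex, age, Cre and pancreatic RNA, and a replicate block.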

Additional observations from a re-analysis of the deposited data

Results flagged for a closer look

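Each of the 10 genes was examined in 4 groups for a single library far from the others, 40 groups in all, and 3 were found. Chance alone gives about 1 in 20 groups if groups are independent and values normally distributed, and 3 of 40 is near that rate. CPM were used here without a log, and groups of different genes share libraries, so the rate is only a guide. Distal Gna14 in control mouse 1 was at 215 CPM, and the next highest control library was at 107 CPM. Distal Pllp in control mouse 1 was at 153 CPM, with the next highest at 88.9 CPM. Proximal Pllp in control mouse 6 was at 39.2 CPM, and the next lowest control library was at 59.0 CPM. Both are the control mice with Villin1-Cre.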

How the results depend on the processing

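The count of members lower and past the threshold was 10 in proximal colon, except 9 with limma on the deposited log2 CPM, where Sycn has no row. It was 7 in distal colon, except 8 with DESeq2. Of 499 log2 fold changes of single members under alternatives, 0 reversed. In proximal colon 2 moved by more than the spread between replicates, and in distal colon 1 changed its side of the threshold. Proximal Rgs17 was -2.76 with a transcript length offset and -2.83 with limma on the deposited log2 CPM, and distal Tmprss2 passed with DESeq2 (-0.73, adjusted p = 0.0317). For the members that did not pass in distal colon, values over the alternatives ran from -1.42 to -0.60 for Nxpe2, from -1.02 to -0.26 for Atp2c2 and from -0.87 to -0.37 for Tmprss2. Genes called in distal colon, 973 in all, were 1588 with DESeq2, 569 among mice labelled male without deficient mouse 3, and 612 without the 3 libraries over 100 CPM of pancreatic transcripts. Of the 13 list genes called in distal colon, the count was 8 among control mice without Cre and 8 without those 3 libraries. The subsets without deficient mouse 3 and without pancreatic RNA were chosen after seeing the data. Each subset has fewer samples, and for DESeq2 the cause was not tested. Other scalings moved the median of all genes by at most 0.01 on the log2 scale.

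Replicate numbers are shared between groups and were not treated as pairs. Correlations of same-numbered deviations ran from -0.16 to 0.26. Only 2 of 14 proximal and 2 of 12 distal libraries correlated best with their own number. Such correlations cannot show whether same-numbered mice were related. With a replicate block, 10 and 7 members, 1696 and 689 genes, and 16 and 11 list genes were called in proximal and distal colon. Depth limits Ephx4 and Rgs17 in distal and Sycn in proximal deficient libraries, which rest on as few as 3, 6 and 2 estimated counts.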

Other observations

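Clps, which encodes the pancreatic lipase cofactor colipase, passed the threshold in proximal colon, where 3 of the 13 pancreatic acinar genes had enough counts to be tested. In distal colon 5 of the 13 were tested and 0 passed (edgeR, 0 also at an unadjusted p of 0.05 and by DESeq2). It averaged 0.140 ± 0.284 CPM in deficient and 3.18 ± 1.66 CPM in control proximal libraries (SD, n = 7 each), with a log2 fold change of -4.48 and an edgeR quasi-likelihood adjusted p of 0.00330. In distal colon it averaged 5.14 ± 9.10 CPM in deficient and 7.24 ± 5.96 CPM in control libraries (log2 fold change -0.49, edgeR quasi-likelihood adjusted p = 0.878). Its distal median was 0.246 CPM in deficient and 6.80 CPM in control libraries, and its highest deficient value was 25.6 CPM. Distal deficient mice 4 and 5 had pancreatic sums of 828 and 416 CPM, and the part of pancreatic RNA in distal Clps was not tested. Clps was at 0 in 3 of the 7 proximal deficient libraries.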
